A study of Saccharomyces cerevisiae with 14 samples.

Results

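The genes described here are 10 members of the hexose transport and glucose-sensing system of budding yeast (Saccharomyces cerevisiae), out of 6670 genes in the count table. They were chosen by name: the 7 hexose transporter genes HXT1 (YHR094C), HXT2 (YMR011W), HXT3 (YDR345C), HXT4 (YHR092C), HXT5 (YHR096C), HXT6 (YDR343C) and HXT7 (YDR342C), and the 3 regulator genes MTH1 (YDR277C), STD1 (YOR047C) and SNF3 (YDL194W). All 10 passed the filter on low counts. The study sequenced poly-A RNA from cells in which SWI4, the gene for the DNA-binding subunit of the late-G1 transcription factor SBF, was induced. The libraries numbered 14, with 2 in each of 7 groups. 5 nM beta-estradiol dissolved in ethanol was given for 1, 2 or 4 h in the induced groups, the solvent ethanol for 1, 2 or 4 h in the mock-induced groups, and nothing in the group taken at 0 h. Every group carried the same genotype, Z3EVpr-SWI4, in which an estradiol-activated synthetic transcription factor drives SWI4, and every culture grew in synthetic complete medium with 2% glucose. No group lacked the construct, so an effect of estradiol outside SWI4 cannot be told apart from one of SWI4. The treatment protocol mentions 1 h alone, but times of 1, 2 and 4 h stand in the labels of the individual samples, and those times were used.

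Yeast takes up glucose through the Hxt carriers, which differ in their affinity for the sugar. Hxt1 and Hxt3 are low-affinity carriers used at high glucose, Hxt2, Hxt4, Hxt6 and Hxt7 have higher affinity and serve cells when glucose is scarcer, and Hxt5 is known for its expression in slowly growing cells. The sensors Snf3 and Rgt2 sit in the plasma membrane and do not transport sugar. When glucose binds them, the co-repressors Mth1 and Std1 are removed, and the repressor Rgt1 then releases the HXT promoters. A separate route, through the repressor Mig1, shuts off the high-affinity carriers and other genes while glucose is abundant.

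Levels are given as CPM, counts scaled to a common library total, with library sizes adjusted by trimmed means of M values (TMM). Total counts were 3.47 M to 17.3 M reads per library, and Pearson correlations of log2 CPM within pairs of replicates were 0.957 to 0.993. Replicate 1 of ethanol 1 h and replicate 2 of estradiol 2 h stood apart from the rest, with the lowest TMM factors of 0.715 and 0.708, and in both of them HXT1, HXT2, HXT3, HXT4, HXT6 and HXT7 were each 1.86 to 2.73 times as high as in the partner library. Nothing in the labels states that the replicates came from separate cultures, and p-values therefore describe the spread of these libraries, which may be technical. SWI4 had 1731 and 1007 CPM at 1 h, 1405 and 908 CPM at 2 h and 1049 and 668 CPM at 4 h of estradiol, against 12.1 to 23.0 CPM in the 6 ethanol libraries and 17.9 and 20.7 CPM in untreated cells. The labels call the cells only yeast cells. The 5 MATa markers MFA1, MFA2, STE2, BAR1 and STE6 summed to 637 to 839 CPM in estradiol, 1329 to 1600 CPM in ethanol and 1360 and 1527 CPM in untreated libraries, and all 5 were called lower with estradiol in the average over the 3 times, MFA1 the most at a log2 fold change of -4.08. The part of this difference in the values of the HXT genes was not tested. The 4 MATalpha markers summed to 18.8 to 23.1 CPM in estradiol, 21.5 to 26.0 CPM in ethanol and 23.7 and 23.9 CPM in untreated libraries, with the pheromone gene MF(ALPHA)1 at 0 to 0.495 CPM, and the 2 meiosis markers IME1 and NDT80 to 28.5 to 39.7, 30.4 to 42.7 and 35.4 and 36.0 CPM in estradiol, ethanol and untreated libraries.

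The first question was whether SWI4 induction moved these genes relative to the solvent at the same time. At the individual times none of the 10 members passed the test, and on average over the 3 times 1 member, HXT1, was called, as lower. At 1 h of estradiol against ethanol, 0 of 10 members were called at an adjusted p under 0.05 (edgeR's quasi-likelihood test with Benjamini-Hochberg adjustment over all genes), beside 0.963% of the 6337 genes tested, and 2 members, HXT1 and HXT5, and 616 genes in all had an unadjusted p under 0.05. At 2 h, 0 of 10 were called, beside 1.26% of genes, and 0 members and 405 genes had an unadjusted p under 0.05. At 4 h, 0 of 10 were called, beside 1.88% of genes, and 2 members, HXT1 and MTH1, and 497 genes in all had an unadjusted p under 0.05. DESeq2 also called 0 members at each of these times. Without 1 of the libraries compared, the genes called were 12 to 205 in place of 61 at 1 h, 29 to 85 in place of 80 at 2 h and 43 to 49 in place of 119 at 4 h. The median log2 fold change of the members was -0.67 at 1 h, -0.04 at 2 h and -0.08 at 4 h, against medians over all genes of 0.01 at 1 h, 0.02 at 2 h and -0.01 at 4 h. The member medians at 1 h and 2 h each include a library that stood apart, ethanol 1 h replicate 1 and estradiol 2 h replicate 2. The average effect called 1 member of 10, beside 6.22% of the 6320 genes in that fit, with a member median of -0.20 and a median over all genes of 0.02. Of the 10 averages 2 were above 0, and an unadjusted p under 0.05 was given to 2 members and 987 genes.

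HXT1, a low-affinity carrier used at high glucose, was that member. It stood at 276 and 369 CPM at 1 h, 168 and 460 CPM at 2 h and 131 and 181 CPM at 4 h of estradiol. The matching ethanol libraries had 1015 and 482 CPM at 1 h, 395 and 676 CPM at 2 h and 287 and 447 CPM at 4 h, and untreated cells had 420 and 349 CPM. The estradiol libraries lay below both ethanol libraries at 1 h and at 4 h and overlapped them at 2 h. The lowest group mean of HXT1 was that of 4 h of estradiol, and of the single libraries estradiol 2 h replicate 1 lay between its 2 replicates. HXT1 fell by 1.06 on the log2 scale on average (SE 0.28, 95% interval -1.66 to -0.46, adjusted p = 0.0402 by edgeR's quasi-likelihood test, 6 libraries a side). Single times gave -1.21 (SE 0.49, adjusted p = 0.442) at 1 h, -0.77 (SE 0.48, adjusted p = 1.00) at 2 h and -1.23 (SE 0.49, adjusted p = 0.463) at 4 h, with n = 2 a side in each. The average rested on most of its libraries: without any 1 of 9 of the 12, namely ethanol 1 h replicate 1, ethanol 2 h replicate 2, estradiol 2 h replicate 1 and both replicates of estradiol 1 h, estradiol 4 h and ethanol 4 h, the adjusted p was 0.0582 to 0.120, and the log2 fold change stayed between -0.89 and -1.33 over all 12 omissions. Without ethanol 1 h replicate 1, the library that stood apart, the 1 h value was -0.58, and without estradiol 2 h replicate 2 the 2 h value was -1.66.

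The remaining transporters were not called against ethanol, and their intervals show what the 2 libraries a group allowed. HXT5, at 13.8 and 14.6 CPM with 1 h of estradiol against 19.3 and 19.9 CPM with ethanol, had a log2 fold change of -0.46 at 1 h (95% interval -0.92 to -0.01, adjusted p = 0.509) and -0.28 on average (95% interval -0.52 to -0.03, adjusted p = 0.245). Its 1 h libraries did not overlap between the treatments. At 4 h, HXT4, a carrier of higher affinity, had 300 and 483 CPM with estradiol and 325 and 505 CPM with ethanol, a log2 fold change of -0.08 with a 95% interval of -0.96 to 0.79. The groups overlapped, and as a ratio the interval runs from 0.516 to 1.73.

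Among the regulators, MTH1, the co-repressor of HXT promoters, had 52.5 and 66.6 CPM at 4 h of estradiol against 39.2 and 46.1 CPM at 4 h of ethanol. Both estradiol libraries were above both ethanol libraries, with a log2 fold change of 0.48 (SE 0.22, adjusted p = 0.623) that was not called. The MTH1 average was 0.23 (95% interval -0.06 to 0.53, adjusted p = 0.456). STD1, the paralog of MTH1, had 77.3 and 54.0 CPM at 1 h of estradiol against 28.4 and 68.4 CPM with ethanol. Those groups overlapped, and the STD1 log2 fold change of 0.42 at 1 h became -0.06 without ethanol 1 h replicate 1. The sensor gene SNF3 ran from 14.4 to 20.4 CPM over the 6 estradiol libraries and from 15.1 to 21.9 CPM over the 6 ethanol libraries. No member had an estradiol effect that changed with time in the joint F test of edgeR, where 0 of 10 members and 0% of genes were called, 0 members and 72 genes had an unadjusted p under 0.05, and DESeq2's likelihood ratio test called 0 members and 2 genes.

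**Figure D1:**
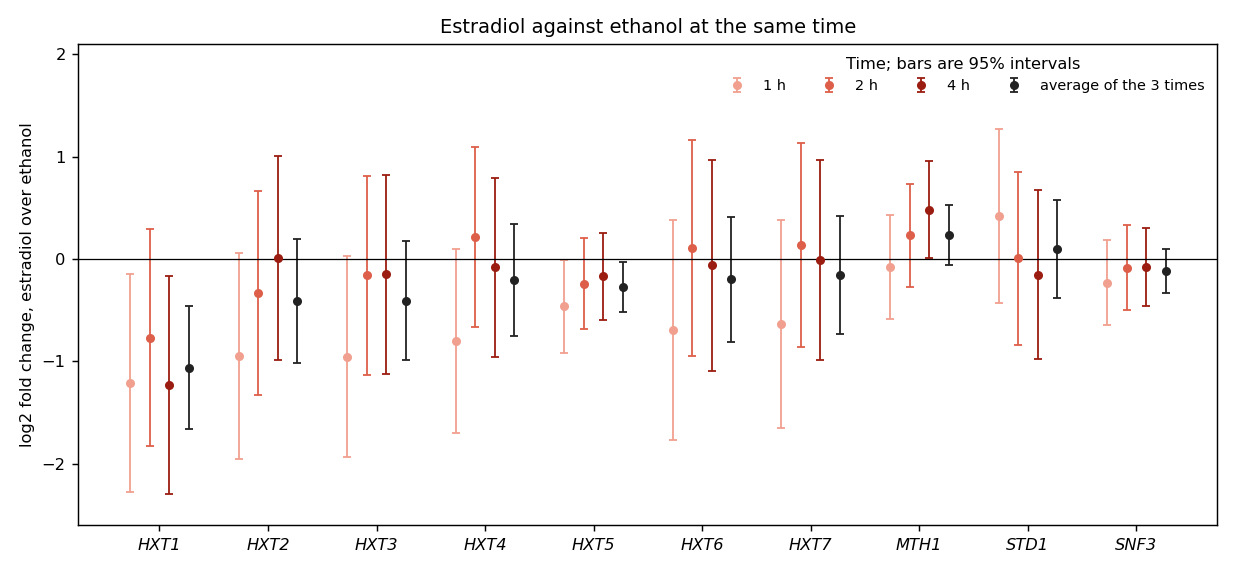
Log2 fold change of estradiol over ethanol (vertical axis) for each of the 10 genes at 1, 2 and 4 h and on average over the 3 times; points are edgeR estimates and bars are 95% intervals, with 2 libraries a side at each time and 6 a side for the average. The average for HXT1, at -1.06, is the value called at an adjusted p under 0.05.

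The second question was how far the same genes stood from the untreated cells, with and without SWI4 induction. These comparisons all use the same 2 untreated libraries, so the estradiol and ethanol values are given side by side and are not separate evidence. Untreated cells were taken at 0 h alone, so treatment, solvent included, and hours in culture cannot be told apart here. At 4 h HXT4, HXT6, HXT7 and the co-repressor gene MTH1 rose over untreated cells in estradiol and in ethanol alike. HXT2, also a carrier of higher affinity, was not called at 4 h. Its means were 360 CPM with estradiol and 358 CPM with ethanol, against 289 CPM in untreated cells. HXT6 and HXT7 enter the counts below as separate rows, although their reads can hardly be told apart. With estradiol, 0 of 10 members were called at 1 h, beside 1.53% of genes (edgeR; 2 members and 682 genes had an unadjusted p under 0.05, and DESeq2 called 1 member, MTH1). At 2 h of estradiol 2 were called higher, HXT4 and MTH1, beside 3.47% of genes, and at 4 h 4 were called higher, beside 10.7% of genes. With ethanol, 0 were called at 1 h, beside 0% of genes (7 members and 397 genes had an unadjusted p under 0.05, and DESeq2 called 2 members, HXT4 and MTH1, and 22 genes). At 2 h of ethanol 0 were called, beside 0.0473% of genes (5 members and 374 genes had an unadjusted p under 0.05, and DESeq2 called the same 2 names), and at 4 h 4 were called higher, beside 1.74% of genes. Those shares at 4 h depend on every library compared: without 1 of them, 183 to 409 genes were called with estradiol in place of 675, and 10 to 71 with ethanol in place of 110. The members' median log2 fold change over untreated cells was 0.35, 0.59 and 0.82 at 1, 2 and 4 h of estradiol and 1.12, 0.75 and 0.93 at 1, 2 and 4 h of ethanol, while the median over all genes lay between -0.02 and 0.02 in each. The medians at 1 h of ethanol and 2 h of estradiol include the 2 libraries that stood apart. Summed over the 7 HXT genes, ethanol 1 h replicate 1 had 4597 CPM against 2117 CPM in its partner. Estradiol 2 h replicate 2 had 3000 CPM against 1360 CPM. In bulk RNA, a change in the share of cells that express a gene and a change in RNA per cell cannot be told apart.

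HXT4 had the widest range of the 10, with group means up to 15.2-fold apart. Its levels were 54.8 and 61.8 CPM at 1 h, 103 and 204 CPM at 2 h and 300 and 483 CPM at 4 h of estradiol. Ethanol libraries had 134 and 70.6 CPM at 1 h, 106 and 158 CPM at 2 h and 325 and 505 CPM at 4 h, and untreated cells had 31.3 and 23.3 CPM. Every treated library was above both untreated ones, and the 4 libraries of 4 h were above all others. With estradiol the HXT4 log2 fold changes over untreated cells were 1.10 at 1 h (adjusted p = 0.328), 2.49 at 2 h (SE 0.43, adjusted p = 0.00673) and 3.84 at 4 h (SE 0.45, adjusted p = 0.000309). With ethanol they were 1.90 at 1 h (adjusted p = 0.391), 2.27 at 2 h (adjusted p = 0.121) and 3.93 at 4 h (SE 0.45, adjusted p = 0.00145). The estradiol call at 4 h held without each library in turn. That at 2 h was lost without untreated replicate 1 (adjusted p = 0.0559) or replicate 2 (adjusted p = 0.124), and the ethanol call at 4 h was lost without untreated replicate 2 (adjusted p = 0.0591). Without estradiol 2 h replicate 2, which stood apart, the 2 h value was 1.92 (adjusted p = 0.0369).

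HXT6 and HXT7, neighbouring genes for high-affinity carriers, had similar values, but their reads can hardly be told apart. HXT7 had 41.2 and 49.5 CPM at 1 h, 59.4 and 118 CPM at 2 h and 166 and 305 CPM at 4 h of estradiol. Ethanol libraries had 98.3 and 44.4 CPM at 1 h, 67.9 and 92.8 CPM at 2 h and 165 and 311 CPM at 4 h, and untreated cells had 28.2 and 20.5 CPM. As with HXT4, every treated library was above both untreated ones. The HXT7 log2 fold change over untreated cells was 3.28 at 4 h of estradiol (SE 0.49, adjusted p = 0.00161) and 3.29 at 4 h of ethanol (SE 0.49, adjusted p = 0.00583). HXT6 had 39.2 and 45.4 CPM at 1 h, 54.7 and 118 CPM at 2 h and 147 and 273 CPM at 4 h of estradiol. Ethanol libraries of HXT6 had 99.8 and 39.0 CPM at 1 h, 69.9 and 90.1 CPM at 2 h and 153 and 287 CPM at 4 h, against 28.5 and 22.3 CPM in untreated cells. The treated libraries again lay above the untreated ones. HXT6 log2 fold changes at 4 h were 3.05 with estradiol (SE 0.51, adjusted p = 0.00329) and 3.11 with ethanol (SE 0.51, adjusted p = 0.00980). The 2 h values with estradiol, 1.86 for HXT7 (adjusted p = 0.0557) and 1.76 for HXT6 (adjusted p = 0.0907), were not called. The ethanol calls of HXT6 and HXT7 at 4 h were lost without untreated replicate 1 (adjusted p = 0.113 for HXT6 and 0.0678 for HXT7) or replicate 2 (adjusted p = 0.187 for HXT6 and 0.135 for HXT7), and that of HXT6 also without ethanol 4 h replicate 2 (adjusted p = 0.0843). The estradiol call of HXT6 at 4 h was lost without untreated replicate 2 (adjusted p = 0.0609), and that of HXT7 held without each library in turn.

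The reads of HXT6 and HXT7 can hardly be assigned to one of them. In the R64 assembly of RefSeq (minus strand of chromosome IV, HXT6 at chrIV:1159608-1161320 and HXT7 at chrIV:1154216-1155928) the coding sequences of 1713 bases differ at 3 positions, and the first 1631 bases are identical. The stretch that holds all 3 differences, bases 1621 to 1713 of each coding sequence, is shown here because it is the sole coding stretch that tells the genes apart, with the differing bases in capitals:
HXT6 coding end: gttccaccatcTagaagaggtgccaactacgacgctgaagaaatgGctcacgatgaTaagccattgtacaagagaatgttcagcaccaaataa
HXT7 coding end: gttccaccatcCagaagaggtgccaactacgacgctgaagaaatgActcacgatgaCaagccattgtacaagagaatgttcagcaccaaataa
Counted from 1 at the A of the start codon, with the HXT6 base first, the differences are T1632C, G1666A and T1677C. HXT6 held between 46.7% and 52.1% of the summed HXT6 and HXT7 counts in each library, and the sources used here do not tell how reads that match both genes were counted. Their separate values are therefore uncertain, and with the 2 rows summed the pair was called higher at 4 h in both treatments. Among the 20 other pairs of the 7 HXT genes, coding sequence identity was 62.9% to 81.9%.

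MTH1 also rose over untreated cells. It had 28.8 and 30.7 CPM at 1 h, 34.9 and 37.7 CPM at 2 h and 52.5 and 66.6 CPM at 4 h of estradiol. The ethanol libraries had 38.2 and 25.5 CPM at 1 h, 26.8 and 35.0 CPM at 2 h and 39.2 and 46.1 CPM at 4 h, and untreated cells had 16.3 and 14.2 CPM. No treated library reached down to the untreated ones. MTH1 log2 fold changes with estradiol were 0.97 at 1 h (adjusted p = 0.0634), 1.26 at 2 h (SE 0.23, adjusted p = 0.00924) and 1.97 at 4 h (SE 0.23, adjusted p = 0.000290), and with ethanol 1.05 at 1 h (adjusted p = 0.391), 1.03 at 2 h (adjusted p = 0.264) and 1.49 at 4 h (SE 0.23, adjusted p = 0.00593). The estradiol call at 4 h held without each library in turn. The estradiol call at 2 h was lost without either untreated library (adjusted p = 0.0668 and 0.153), and the ethanol call at 4 h without either untreated library (adjusted p = 0.0646 and 0.144) or ethanol 4 h replicate 2 (adjusted p = 0.0756). Without estradiol 2 h replicate 2 the 2 h value of MTH1 was 1.20 (adjusted p = 0.0479).

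The remaining 6 members were not called in any comparison with untreated cells in the main fit. Apart from the omissions of a library, 8 alternatives were run for each value. Of these, 2 called HXT1 at 4 h of estradiol. For HXT3 and SNF3 at 4 h, 2 of the 8 gave a call in each treatment. HXT1 had the sign opposite to that of HXT4 at 4 h of estradiol, with a log2 fold change of -1.30 over untreated cells (95% interval -2.37 to -0.23, adjusted p = 0.111), both estradiol libraries lying below both untreated ones. HXT3, the other low-affinity carrier, had 1270 and 1827 CPM at 4 h of estradiol and 1391 and 2049 CPM at 4 h of ethanol, against 811 and 650 CPM in untreated cells. Those groups did not overlap, at log2 fold changes of 1.08 with estradiol (adjusted p = 0.142) and 1.24 with ethanol (adjusted p = 0.188). HXT2, a carrier of higher affinity, was highest in ethanol 1 h replicate 1 at 863 CPM, with 465 CPM in its partner and 309 and 269 CPM in untreated cells. Its log2 fold change at 1 h of ethanol was 1.20 (adjusted p = 0.648), and 0.69 without that replicate. SNF3 had 19.5 and 20.4 CPM at 4 h of estradiol and 20.3 and 21.9 CPM at 4 h of ethanol, against 13.3 and 13.9 CPM in untreated cells, with log2 fold changes of 0.55 with estradiol (adjusted p = 0.0671) and 0.63 with ethanol (adjusted p = 0.0940). SNF3 libraries of 4 h lay above the untreated ones without overlap, and the difference missed the threshold in the main fit. HXT5 group means were within 1.54-fold of one another and STD1 group means within 1.38-fold, the narrowest of the 10.

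**Figure D2:**
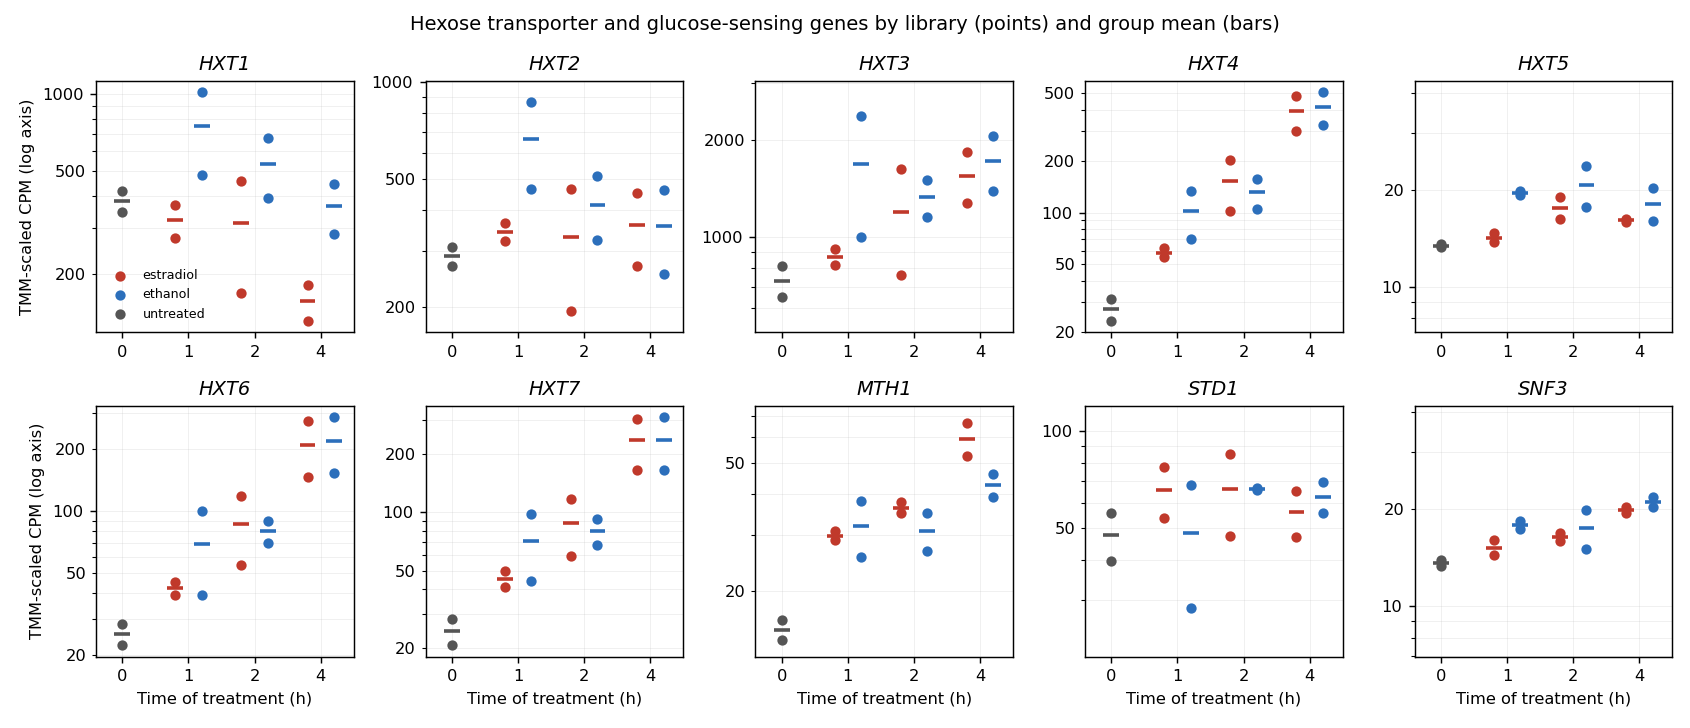
TMM-scaled CPM (vertical axes, log scale) of each gene by hours of treatment (horizontal axes) in every library; points are libraries and short bars are group means, in red for estradiol, blue for ethanol and grey for untreated cells at 0 h. By group mean, HXT3, HXT4, HXT6, HXT7, MTH1 and SNF3 are lowest in untreated cells and highest in a 4 h group. HXT2, HXT5 and STD1 are also lowest in untreated cells. The group mean of HXT1 is lowest at 4 h of estradiol, where its libraries have 131 and 181 CPM.

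**Figure D3:**
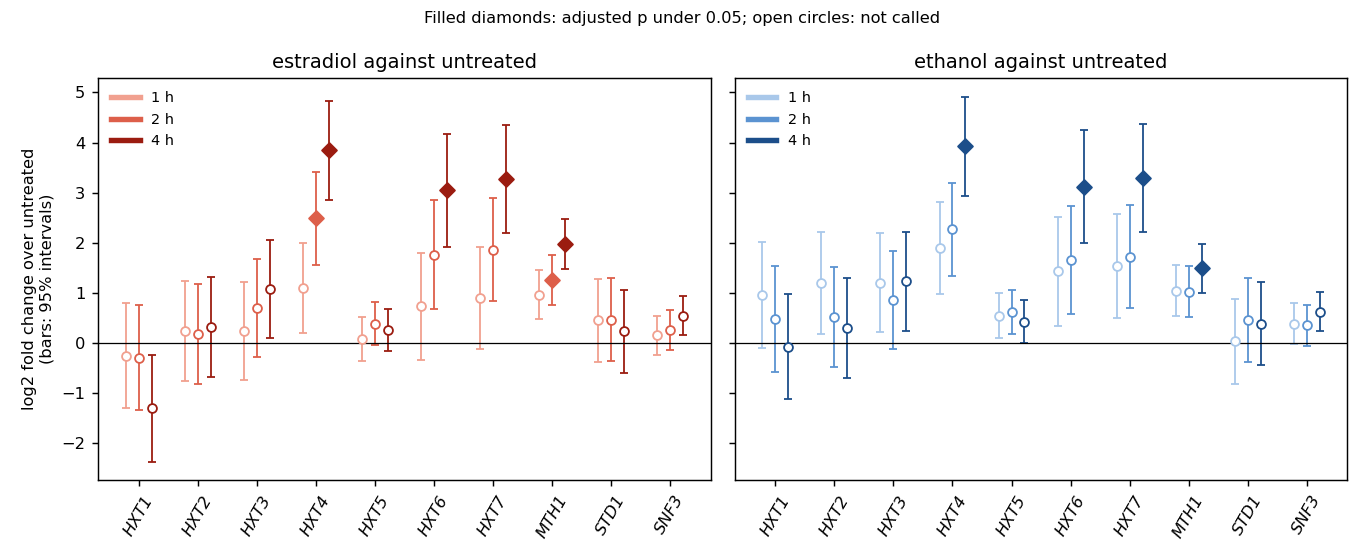
Log2 fold change over untreated cells (vertical axis) for each gene after 1, 2 and 4 h of estradiol (left) or ethanol (right), with 95% intervals from edgeR and 2 libraries a group. Filled diamonds mark calls at an adjusted p under 0.05; at 4 h both panels have HXT4, HXT6, HXT7 and MTH1 filled, with HXT4 at 3.84 on the left and 3.93 on the right.

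The make-up of the HXT transcript pool was described per kilobase of coding length, so that genes of different length can be compared. With estradiol at 4 h the levels were 909 ± 231 CPM per kb for HXT3, 226 ± 74.5 for HXT4, 222 ± 80.1 for HXT2, 137 ± 57.4 for HXT7, 123 ± 51.9 for HXT6, 91.1 ± 20.6 for HXT1 and 9.04 ± 0.162 for HXT5 (mean ± SD, n = 2). With ethanol at 4 h HXT3 had 1009 ± 273 CPM per kb, HXT4 240 ± 73.8, HXT2 220 ± 90.0, HXT1 214 ± 66.2, HXT7 139 ± 60.3, HXT6 128 ± 55.3 and HXT5 10.2 ± 1.69. In untreated cells the order was HXT3 at 429 ± 66.8 CPM per kb, HXT1 at 224 ± 29.5, HXT2 at 178 ± 17.4, HXT4 at 15.8 ± 3.27, HXT6 at 14.8 ± 2.54, HXT7 at 14.2 ± 3.15 and HXT5 at 7.55 ± 0.132. HXT3 led in every group, and HXT1 was the second of the 7 in untreated cells and the sixth at 4 h of estradiol. Neighbours whose difference in mean was within the larger SD were HXT4 with HXT2 in both 4 h groups, HXT2 with HXT1 at 4 h of ethanol, HXT7 with HXT6 in all 3 groups, HXT6 with HXT1 at 4 h of estradiol and HXT4 with HXT6 in untreated cells. Among the regulators, MTH1 had 45.7 ± 7.68 CPM per kb with estradiol at 4 h, 32.8 ± 3.73 with ethanol at 4 h and 11.7 ± 1.13 in untreated cells, and STD1 had 42.2 ± 9.68 CPM per kb with estradiol at 4 h, 47.0 ± 7.22 with ethanol at 4 h and 35.8 ± 8.65 in untreated cells. SNF3 was the lowest of the 10, at 7.51 ± 0.235, 7.95 ± 0.414 and 5.13 ± 0.151 CPM per kb with estradiol at 4 h, with ethanol at 4 h and in untreated cells.

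The ratio of HXT1 to HXT3 within a library does not depend on the scaling of that library. Per kilobase it was 0.336 and 0.401 at 1 h, 0.220 and 0.283 at 2 h and 0.103 and 0.0986 at 4 h of estradiol. With ethanol it was 0.427 and 0.482 at 1 h, 0.340 and 0.448 at 2 h and 0.205 and 0.217 at 4 h, and in untreated cells it was 0.515 and 0.533. At each time both estradiol libraries were below both ethanol libraries, and within each treatment the 4 h libraries were the lowest. The ratio of HXT4 to HXT1 was 0.196 and 0.166 at 1 h, 0.602 and 0.438 at 2 h and 2.27 and 2.64 at 4 h of estradiol. Ethanol gave 0.130 and 0.145 at 1 h, 0.265 and 0.231 at 2 h and 1.12 and 1.12 at 4 h, and untreated cells gave 0.0738 and 0.0662. Here both estradiol libraries were above both ethanol libraries at each time. These ratios were looked at after the levels were known and carry no test. HXT1 made up 5.66% and 5.08% of the summed HXT level per kb at 4 h of estradiol, against 11.0% and 10.9% at 4 h of ethanol and 25.3% and 25.6% in untreated cells.

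**Figure D4:**
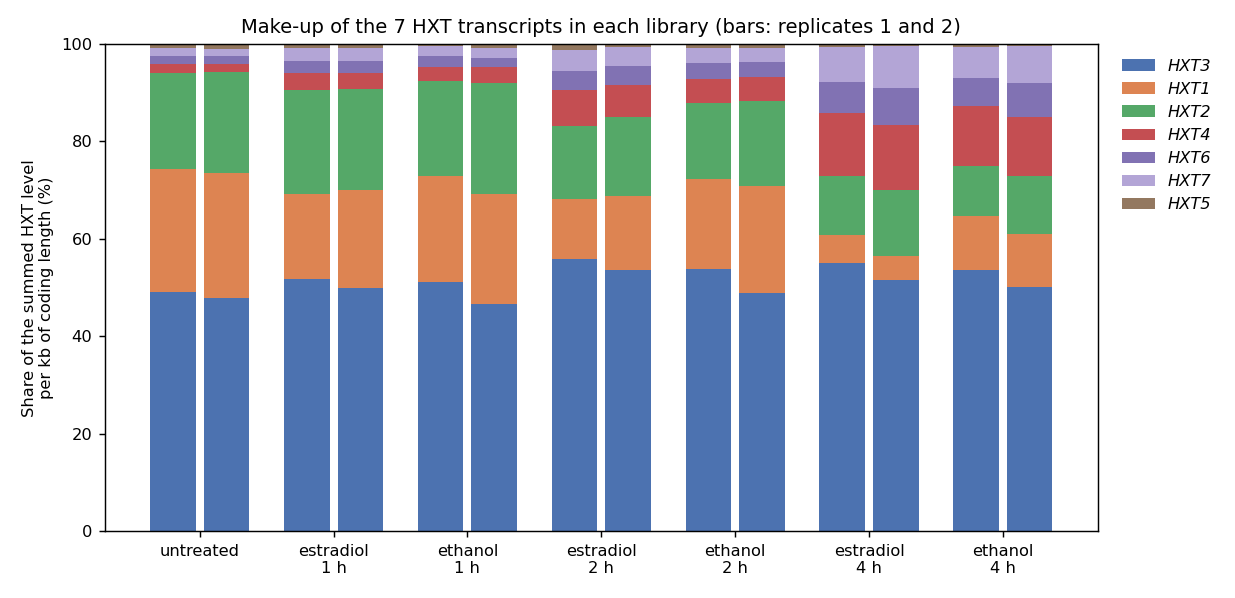
Share of the summed level per kilobase of coding length (vertical axis, percent) held by each of the 7 HXT genes in each library; the bars of a group are replicates 1 and 2. HXT3 holds the largest share throughout, the HXT1 share is smallest at 4 h of estradiol (5.66% and 5.08%), and the HXT4 share is 12.2% to 13.4% in the 4 h libraries against 1.87% and 1.69% in untreated cells.

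All 10 members are single coding segments that no other annotated protein-coding gene overlaps in R64. In the 600 bases before the start codon, matches to 4 motifs were counted on both strands, without any pair of matches overlapping: the Rgt1 motif CGGANNA, the Mig1 cores CCCCGC and CCCCAC, the stress response element AGGGG, and the SBF box CACGAAA or CGCGAAA. The Rgt1 motif occurred in 8 of 10 members, against 47.9% of the 6018 windows of that length in the genome, and at least 3 times in 4 members (7 in HXT3, 4 in HXT1 and 3 each in HXT2 and HXT5), against 3.71% of windows. A Mig1 core occurred in 6 of 10, against 16.5% of windows, and the stress response element in 8 of 10, against 39.6% of windows. The SBF box occurred in 1 of 10, STD1, against 14.2% of windows. These are matches of letters and not shown to be sites. The upstream windows of HXT4 and SNF3 hold part of another gene, YHR093W for HXT4 and YDL195W for SNF3.

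Stretches of 300 bases are shown for the members whose profiles over the groups were least alike, HXT1 and HXT4, for the most abundant carrier, HXT3, and for MTH1. Capitals mark matches to CGGANNA (or its complement TNNTCCG) and to the Mig1 cores (or GCGGGG and GTGGGG). All are read 5′ to 3′ on the gene's own strand, which is the minus strand of R64. HXT1 (chrVIII:292810-293109, 484 to 185 bases before the start codon) holds 4 Rgt1 matches, HXT4 (chrVIII:288978-289277, 466 to 167 bases before) holds 2 Rgt1 and 2 Mig1 matches, HXT3 (chrIV:1164899-1165198, 538 to 239 bases before) holds 7 Rgt1 matches, and MTH1 (chrIV:1015957-1016256, 554 to 255 bases before) holds 2 Rgt1 matches and 1 Mig1 match:
HXT1 upstream: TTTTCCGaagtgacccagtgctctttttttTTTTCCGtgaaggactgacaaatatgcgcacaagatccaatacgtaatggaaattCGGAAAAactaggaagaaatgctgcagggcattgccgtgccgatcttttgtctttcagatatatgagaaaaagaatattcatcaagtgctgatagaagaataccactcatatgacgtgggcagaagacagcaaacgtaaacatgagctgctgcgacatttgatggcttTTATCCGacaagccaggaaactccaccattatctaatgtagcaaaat
HXT4 upstream: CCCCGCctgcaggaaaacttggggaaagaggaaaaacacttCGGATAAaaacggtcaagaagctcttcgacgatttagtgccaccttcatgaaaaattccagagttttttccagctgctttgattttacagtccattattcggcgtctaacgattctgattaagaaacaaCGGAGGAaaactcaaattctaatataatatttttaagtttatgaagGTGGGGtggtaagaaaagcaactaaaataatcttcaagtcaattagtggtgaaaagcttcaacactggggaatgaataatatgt
HXT3 upstream: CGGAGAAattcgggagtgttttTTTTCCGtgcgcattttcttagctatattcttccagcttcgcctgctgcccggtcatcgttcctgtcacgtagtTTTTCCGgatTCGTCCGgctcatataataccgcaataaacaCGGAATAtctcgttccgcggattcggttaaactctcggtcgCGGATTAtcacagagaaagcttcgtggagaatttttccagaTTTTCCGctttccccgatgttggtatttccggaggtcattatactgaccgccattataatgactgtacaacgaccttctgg
MTH1 upstream: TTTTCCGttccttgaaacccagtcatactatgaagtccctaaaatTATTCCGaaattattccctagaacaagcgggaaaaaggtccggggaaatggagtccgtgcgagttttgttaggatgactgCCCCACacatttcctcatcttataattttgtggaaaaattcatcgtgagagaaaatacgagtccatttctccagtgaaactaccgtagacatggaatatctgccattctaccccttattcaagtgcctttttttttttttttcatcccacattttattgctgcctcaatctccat
HXT1 and HXT3 both carry several Rgt1 matches in these stretches and no Mig1 match. Outside its stretch, HXT1 has a Mig1 core 59 bases before the start codon. At 4 h of estradiol the levels of HXT1 and HXT3 lay on opposite sides of the untreated ones, with neither difference called in the main fit.

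Among the members themselves, the profiles of log2 group means over the 7 groups were most alike for HXT6 and HXT7, at a root-mean-square difference of 0.07 after centring, and least alike for HXT1 and HXT4, at 1.67. The reads of HXT6 and HXT7 can hardly be told apart, so their likeness is not a separate result. Of 5483 other genes, the one nearest to HXT4, HXT6 and HXT7 alike was RGI1 (YER067W), a gene known for its induction under respiratory growth, at differences of 0.26 from HXT4, 0.28 from HXT6 and 0.25 from HXT7. RGI1 averaged 42.1 CPM at 4 h of estradiol and 41.1 CPM at 4 h of ethanol, against 3.65 CPM in untreated cells. GPH1 (YPR160W), which encodes glycogen phosphorylase, was the third nearest to HXT4 (0.39) and the second nearest to HXT6 (0.30) and HXT7 (0.31), with 82.1 CPM at 4 h of estradiol and 58.5 CPM at 4 h of ethanol, against 9.13 CPM in untreated cells. IGD1 (YFR017C), an inhibitor of glycogen debranching, was the third nearest to HXT7 (0.32). The reading frames YER067C-A, the second nearest to HXT4 (0.30), and YER066C-A, the third nearest to HXT6 (0.30), filled the other places. Neither identifier matched the R64 gene table, and whether their reads are separate from those of other genes was not tested. These are descriptions over 7 group means.

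Of 26 other genes of glucose sensing and transport, 25 were tested, and HXT14 was not. Against ethanol, 0 of 25 were called at 1, 2 and 4 h (edgeR; 1, 0 and 1 had an unadjusted p under 0.05, and DESeq2 called 0), with medians of 0.10, -0.05 and -0.08 on the log2 scale. The average called 0 of 24, with 5 at an unadjusted p under 0.05, beside 987 of 6320 genes. Among these, MIG2 at -0.43 (adjusted p = 0.109) and MIG3 at -0.49 (adjusted p = 0.0789), which encode repressors related to Mig1, were called lower by DESeq2. With estradiol against untreated cells edgeR called 0, 1 and 2 of 25 at 1, 2 and 4 h. These counts are near the shares of all genes, 1.53%, 3.47% and 10.7%. RGS2, whose product switches off the G protein Gpa2 of the glucose-sensing cAMP route, rose over untreated cells by 1.19 at 2 h (adjusted p = 0.00780) and 1.06 at 4 h of estradiol (adjusted p = 0.00729). Ethanol values of RGS2 were 1.02 at 2 h (adjusted p = 0.184) and 0.80 at 4 h (adjusted p = 0.0746). MIG1 rose by 0.75 at 4 h of estradiol (adjusted p = 0.0423), with 0.31 at 4 h of ethanol (adjusted p = 0.491). The RGS2 call at 2 h was lost without either untreated library (adjusted p = 0.128 without replicate 1 and 0.0563 without replicate 2), the RGS2 call at 4 h without untreated replicate 1 (adjusted p = 0.0979), and the MIG1 call without any 1 of its 4 libraries (adjusted p = 0.0607 to 0.346). With ethanol against untreated cells edgeR called 0 of 25 at every time (3, 2 and 2 had an unadjusted p under 0.05 at 1, 2 and 4 h, and DESeq2 called 0, 1 and 2).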

How the data were processed

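The authors deposited unnormalized read counts, as whole numbers per gene, with 1 column for each of the 14 libraries. Alignment used Bowtie2 2.2.5, per the submitters' processing notes. How reads were counted, on which build and with or without strand, is not given in the sources. Gene symbols were looked up by identifier in the R64 gene table of RefSeq, where 5999 of 6670 identifiers matched and 671 did not. Positions and sequences are those of R64 for the same identifiers.

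Counts were analysed with edgeR 4.0.16 in R 4.3.3, with TMM scaling and genes kept by filterByExpr with its minimum count of 10 (6337 genes, or 6320 in the fit of the average). A quasi-likelihood model with 1 coefficient for each of 7 groups used all 14 libraries, leaving 7 residual degrees of freedom, and the common biological variation coefficient was 0.206. All tests were 2-sided. Benjamini-Hochberg adjustment ran over all genes within each of 11 comparisons, and an adjusted p under 0.05 was called. The average effect was fitted to the 12 treated libraries in an additive model of treatment and time, and the change with time from a joint F test. The SE is the size of the log2 fold change over the root of F, and 95% intervals use the moderated degrees of freedom (10.5 to 11.7). The scripts were tested on simulated data.

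The members, lists, tests and motifs were chosen with earlier results of these data known. The 10 members are always named; of the 26 pathway genes, those called against ethanol or on average and up to 4 called against untreated cells in each comparison are named; and for the 3 members with the widest range, the 3 other genes with an average log2 CPM of at least 3 and the smallest root-mean-square difference of centred log2 group means. MIG2 and MIG3 fall outside that rule and were chosen after their values were seen. Alternatives were RLE factors, library totals alone, no filter, a floor of 10 on the mean CPM, a block on the replicate number, DESeq2 1.42.0, HXT6 and HXT7 summed, only the libraries compared, averaging 3 contrasts instead of the additive fit, and leaving out each library.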

Additional observations from a re-analysis of the deposited data

How the results depend on the processing

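Of the 11 called values of members, 114 of 140 alternatives kept the call and 26 lost it, and none changed sign; of 89 uncalled values, 29 changed sign under at least 1 alternative. Counts of called members moved as follows, and the cause was not tested. DESeq2 called 1 with estradiol at 1 h, 4 with estradiol at 2 h, 2 with ethanol at 1 h and 2 with ethanol at 2 h, all against untreated cells. Library totals alone called 1 (HXT1, of 119 genes called) for estradiol against ethanol at 4 h. Against untreated cells they called 1 (of 80 genes) with estradiol at 1 h and 1 (of 2 genes) with ethanol at 2 h. They shifted the median of all genes to 0.32 for estradiol against ethanol at 1 h and to -0.21 for ethanol at 1 h against untreated cells. With library totals alone the calls over all genes at 4 h of estradiol against untreated cells were 288 higher and 89 lower, in place of 434 higher and 241 lower; for estradiol against ethanol at 1 h they were 37 higher and 19 lower, in place of 30 higher and 31 lower; at 2 h 52 higher and 35 lower, in place of 57 higher and 23 lower; for estradiol at 1 h against untreated cells 62 higher and 18 lower, in place of 64 higher and 33 lower; and for ethanol at 4 h 90 higher and 4 lower, in place of 92 higher and 18 lower. Only the libraries compared gave 3 called members with estradiol at 1 h (of 271 genes called), 0 at 2 h (41 genes) and 7 at 4 h (6 higher and HXT1 lower, of 1855 genes) and 5 with ethanol at 2 h (255 genes), against untreated cells. Leaving out 1 library gave 0 to 4 with estradiol at 2 h, 3 to 4 with estradiol at 4 h and 0 to 4 with ethanol at 4 h against untreated cells, and 0 to 1 for the average. Among the uncalled values that reversed without 1 library were STD1 at 1 h of estradiol against ethanol (-0.057 without ethanol 1 h replicate 1, in a range of -0.06 to 1.25) and HXT4 at 4 h (-0.47 to 0.27). The 393 genes called for the average were 268 with library totals and 549 with DESeq2, and 219 to 445 without 1 library. Without 1 of the libraries compared, genes called against untreated cells were 12 to 50 in place of 97 at 1 h and 71 to 294 in place of 220 at 2 h of estradiol, and 0 in place of 3 at 2 h of ethanol. Other counts over all genes moved more: with DESeq2, 157 at 1 h, 150 at 2 h and 208 at 4 h of estradiol against ethanol were called, and 227 at 1 h, 444 at 2 h and 1133 at 4 h of estradiol and 22 at 1 h, 41 at 2 h and 486 at 4 h of ethanol against untreated cells.

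The labels tie the replicate numbers to no shared culture or day, and correlations of same-numbered deviations did not exceed 0.1 in every pair of groups, so the numbers were not taken as pairs. The 21 correlations ran from -0.69 to 0.74: the 10 under -0.1 each set untreated or ethanol 1 h against one of the other 5 groups, and the 11 above 0.1 lay among those 5 or between these 2 (0.60). With the replicate block in the fit of all libraries the counts of called members were 0 at 1, 2 and 4 h of estradiol against ethanol, 0 at 1 h, 2 at 2 h and 4 at 4 h of estradiol and 0 at 1 h, 0 at 2 h and 4 at 4 h of ethanol against untreated cells, and 1 for the average, as without it; genes called with ethanol at 4 h were 175 in place of 110. Within the libraries compared, the numbers were a block where that correlation was above 0.1 and crossed where under -0.1. This choice, made on the data, favours calls, so the counts decide nothing. The opposite choice, its members in brackets, called fewer genes throughout. Estradiol against ethanol called 1, 0 and 2 (0, 0 and 1) members at 1, 2 and 4 h, of 269, 204 and 1672 genes. Against untreated cells estradiol called 5, 4 and 7 (2, 3 and 6), of 968, 547 and 3334. Ethanol called 6, 9 and 8 (1, 4 and 5), of 315, 668 and 2645. With 2 libraries a group, the 95% intervals of HXT1 against ethanol in the main fit were -2.28 to -0.15 at 1 h and -2.30 to -0.17 at 4 h, and neither was called in that fit. Member counts ran from 46 reads (SNF3, ethanol 1 h replicate 1) to 29865 reads (HXT3, ethanol 4 h replicate 2).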
